A study of Mus musculus with 15 samples.

Results

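The interferon-stimulated genes and the genes of antigen presentation by MHC class I were followed in mouse livers that lacked the bile phospholipid transporter Mdr2 (current symbol Abcb4), and in the tumours that arose in them. The set held 42 listed genes, taken as known targets of interferon and as parts of the class I pathway. Of these, 36 had a probe set of their own whose signal lay above the 40th percentile of its array in at least 3 arrays, out of 9528 genes that met this condition in the study. They were 20 genes of the type I interferon response, 7 genes of the interferon-gamma response (6 GTPases and their regulator Irf1, together called interferon-gamma GTPases here), 6 genes of peptide processing and loading, and 3 chains of the class I molecule. Isg15, Tgtp1 and Psme2 had only a probe set shared with other genes, and Ifi44, Xaf1 and Lgals3bp2 had none listed, so these 6 genes were not analysed here.

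The samples were 6 liver tumours of Mdr2-KO homozygous mice, 6 non-tumorous livers of Mdr2-KO homozygous mice and 3 livers of Mdr2-KO heterozygous mice, which served as controls, all at 16 months of age. The labels give no strain, sex or treatment, and the controls themselves carry 1 disrupted copy. The 15 samples came from 9 animals. Tumours carry the number of their mouse, which also numbers its liver: mice 3 and 4 gave 1 tumour each, and mice 5 and 6 gave 2 each (5-1 and 5-2, 6-1 and 6-2). Gene expression was measured on Affymetrix arrays and given as 1 signal per probe set on a linear scale. Precision was limited by how many arrays there were. The p-values measure the spread between these samples, in which the 2 tumours of mouse 5 and the 2 of mouse 6 counted almost as separate animals. Signals of different genes come from different probes and were not set against each other.

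Interferons are secreted signals, and type I interferon is released by cells that sense foreign or misplaced nucleic acid. Type I interferon acts through STAT proteins bound to Irf9 and switches on a broad set of antiviral genes through a promoter sequence called the interferon-stimulated response element. Interferon-gamma, made mainly by T and natural killer cells, acts through a gamma-activated site and raises GTPases that attack pathogen vacuoles, as well as the machinery that cuts proteins into peptides and loads them on class I molecules for display to T cells. In liver, hepatocytes, Kupffer cells and endothelium all respond to both.

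Before the results, the samples were checked as a whole. Abcb4 had a signal of 122.5 to 681 in the tumours (highest in tumour 4) and of 177 to 306 in the knockout livers, against 779 to 1006 in the controls. All knockout samples were below every control (log2 change -1.76 ± 0.36 in tumours and -1.89 ± 0.36 in knockout livers, adjusted p = 0.00780 and 0.0143 in limma), and where the probe set lies relative to the disruption is not known. Median array signals lay between 35.8 in tumour 4, the lowest of all, and 51.2 in tumour 5-1, the highest. All 10 measured hepatocyte markers passed the filter, with a summed signal of 71895 to 102026 in tumours and 88520 to 109320 in knockout livers, against 109227 to 120598 in controls. The summed signal of 12 macrophage markers was 1580 in tumour 4 and 5050 to 9286 in the other tumours, 3893 to 6252 in knockout livers and 2405 to 2711 in controls. Of 12 T and NK cell markers with a probe set, 4 passed the filter and Cd3d, Cd3e, Cd3g and Cd4 were among the 8 that did not. For actin, the 3' end signal divided by the 5' end signal, a sign of RNA quality, was 1.51 to 2.06 in tumours and 1.74 to 2.74 in knockout livers, against 2.55 to 3.37 in controls. Its part in the differences from controls was not tested beyond a fit that held the ratio as a covariate.

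In the non-tumorous knockout livers, set against the heterozygous livers, a few genes of the set rose. Usp18, Ifi27l2b and the peptide transporter gene Tap2 rose, by 2.80-fold, 6.85-fold and 2.04-fold, and no gene of the set fell. These were 3 of 36 genes called higher at a Benjamini-Hochberg adjusted p under 0.05 in limma, against 1.36% of all genes tested, and 0 of 36 called lower, against 0.315%. The median log2 change was 0.28 over the 36 genes and -0.02 over all genes tested, and 25 of the 36 changes were above 0. An unadjusted p under 0.05 was reached by 10 of the 36, against 15.7% of all genes. Values of knockout livers and controls did not overlap, with the livers higher, for 9 genes (Ifi27l2b, Tap2, Ifih1, Bst2, Oasl2, Ifitm3, Trim25, Psmb9 and H2-K1), against 8.01% of all genes, and for 0 genes with the livers lower, against 6.78%. In whole tissue, more or fewer cells that express a gene and more or less of its RNA in each cell cannot be told apart. A fit of livers and controls alone, without the tumours, called 9 of the 36 genes (994 of all genes, against 160 in the fit of all samples), adding Ifih1, Bst2, Oasl1, Oasl2, Ifitm3 and H2-K1. Oasl2, named in both lists, was above the 40th percentile of its array in 0 controls, 6 livers and 4 tumours. It passed the filter only through the groups where it was high, so its place in the lists is not separate support.

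In the tumours, against the same controls, 4 genes of the set rose. Usp18 (4.68-fold), Ifi27l2b (5.68-fold), Tap2 (2.27-fold) and Ifih1 (2.08-fold) were called higher, and no gene of the set was called lower. These were 4 of 36 genes called higher, against 3.94% of all genes tested, and 0 of 36 called lower, against 2.94%. The median log2 change was 0.43, against -0.02 over all genes, and 31 of the 36 changes were above 0. An unadjusted p under 0.05 was reached by 12 of the 36, against 22.4% of all genes. Groups did not overlap, with tumours higher, for 5 genes (Usp18, Ifi27l2b, Ifih1, Tap2 and H2-D1), against 5.3% of all genes, and for 0 genes with tumours lower, against 6.13%. Both comparisons share the 3 controls and are not independent. Without tumour 4, 8 genes of the set were called (782 of all genes, against 655 in the fit of all samples). Ifit2 (log2 change 2.37 ± 0.54 SE, adjusted p = 0.0128), Ifit3 (0.88 ± 0.22, adjusted p = 0.0193), Oasl1 (0.83 ± 0.23, adjusted p = 0.0361) and Psmb9 (0.68 ± 0.17, adjusted p = 0.0242) were added in limma. Tumour 4 was the lowest tumour for each of these added genes, so leaving it out raises their change. Ifit2 was above the 40th percentile of its array in 0 controls, and passed the filter only through knockout samples. With the actin ratio as a covariate, or with tumours and controls fitted alone, 2 genes were called, Usp18 and Ifi27l2b (21 and 117 of all genes).

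Set against the non-tumorous knockout livers, the tumours showed no gene of the set past the threshold. In limma 0 of 36 genes were called, against 0.136% of all genes tested in either direction (0.021% higher and 0.115% lower), and 5 had an unadjusted p under 0.05 (Mx1, Gbp3 and Usp18 higher, Ifitm3 and Trim25 lower), against 10.3% of all genes. The groups overlapped for all 36 genes, while they did not for 0.126% of all genes with tumours higher and 0.567% with tumours lower. The median log2 change was 0.16, against 0.01 over all genes, and 26 of 36 changes were above 0. In simulated data of this size, 60% of planted changes of log2 1 and 96.5% of those of log2 2 were called in this comparison. The simulation gave each gene 1 spread in all groups and no animal effect. The type I genes had a median SD of 0.68 in tumours and 0.29 in knockout livers, so these shares may be too high for the set. Changes of about log2 1 or less, and larger ones in genes that vary more, could be missed. Mx1 (1.21) and Gbp3 (1.15) did not pass.

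**Figure D1:**
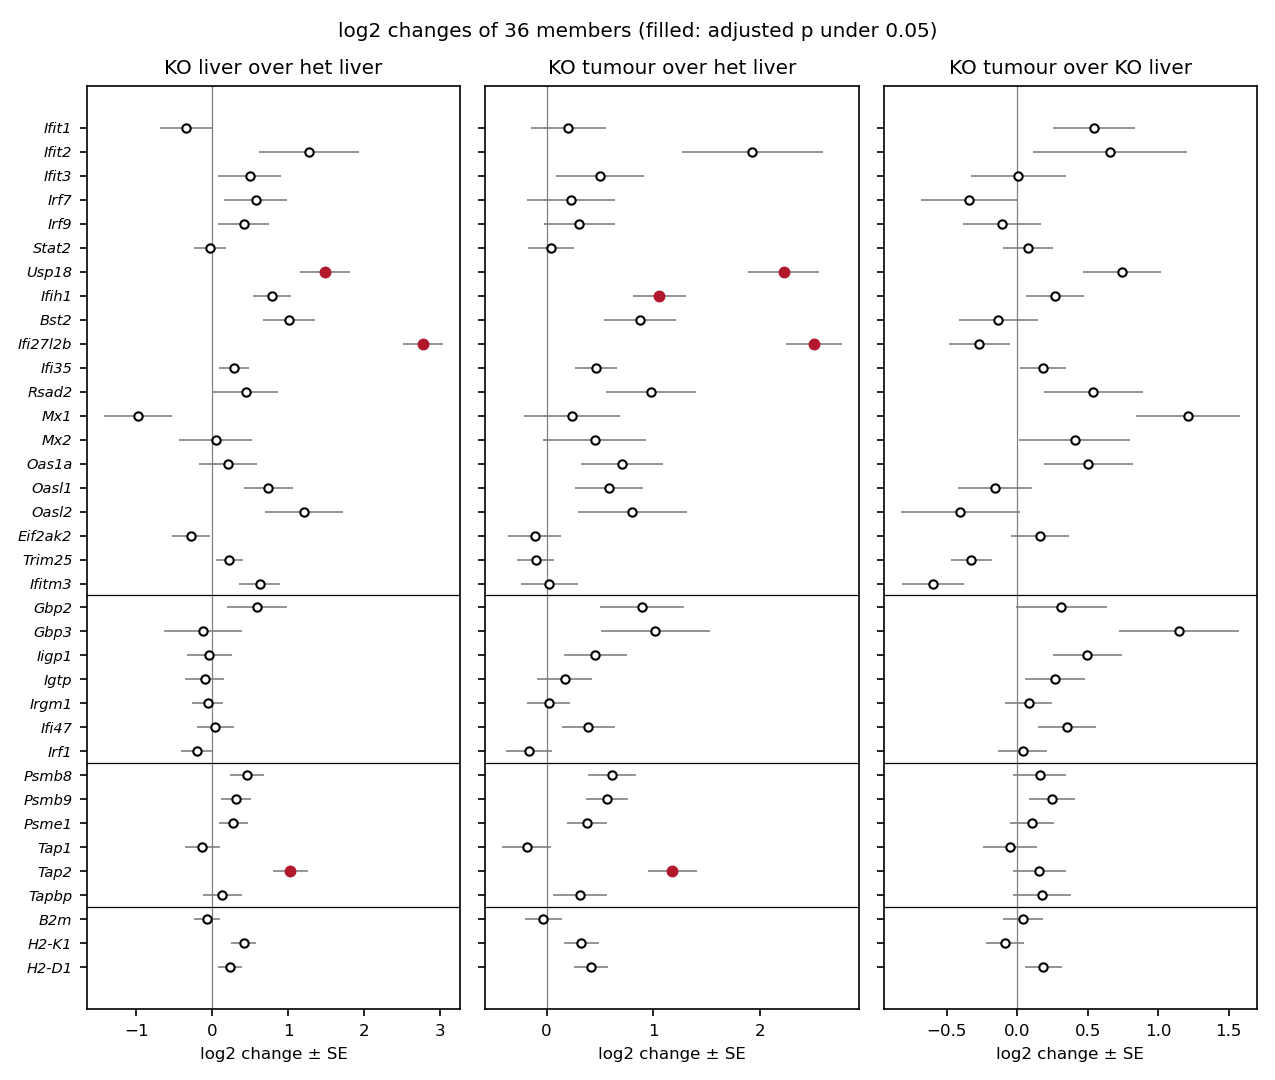
log2 change with its SE of each of the 36 genes, from top to bottom by class (type I response, interferon-gamma GTPases, peptide processing and loading, MHC class I chains), for knockout liver over heterozygous liver, tumour over heterozygous liver and tumour over knockout liver. Filled points passed an adjusted p under 0.05: 3 genes in the first panel, 4 in the second and 0 in the third.

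Usp18 encodes the protease that removes the ubiquitin-like Isg15 from proteins and that blocks the type I interferon receptor from within. Its signal was 199.8 in tumour 3, 248 in tumour 4, 164 and 150.3 in tumours 5-1 and 5-2, and 174 and 274 in tumours 6-1 and 6-2. Knockout livers 1 to 6 had 120.5, 118, 159.7, 102, 43.9 and 201, against 34.3, 22.7 and 52.5 in the controls. Every tumour lay above every control, while liver 5 lay within the range of the controls. The log2 change was 1.48 ± 0.33 (SE, n = 6 and 3, adjusted p = 0.0313 in limma) in the knockout livers and 2.23 ± 0.33 (n = 6 and 3, adjusted p = 0.00110) in the tumours. Leaving out any control ended the call in the livers, at an adjusted p of 0.127, 0.180 and 0.0609 without controls 1, 2 and 3, and so did leaving out liver 1, 2, 3, 4 or 6. In limma that call was also lost with a larger constant added before the log2 (adjusted p = 0.0556) and with a robust prior without trend (0.0560). The call in the tumours was kept in every fit run. Usp18 was higher in 5 of 6 tumours than in the liver of the same mouse.

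Ifi27l2b belongs to a family of small interferon-induced membrane proteins and had the largest change of the set. Tumours 3, 4, 5-1, 5-2, 6-1 and 6-2 had signals of 335, 386, 188, 277, 355 and 374, and knockout livers 1 to 6 had 410.1, 436, 485, 370, 276 and 312. The controls had 58.1, 67.1 and 25.3. All 12 knockout samples lay far above the controls, and tumours and livers overlapped. The log2 change was 2.78 ± 0.26 (SE, adjusted p = 2.28e-05) in the livers and 2.51 ± 0.26 (SE, adjusted p = 4.93e-05) in the tumours, and both calls were kept in every fit run. The type of this probe set allows it to match related transcripts. The related gene Ifi27l2a, measured on its own probe set, had signals of 40.4 to 222 in tumours and 30.2 to 239 in knockout livers, against 6.6 to 38.2 in controls.

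Ifih1 encodes a cytosolic sensor of long viral RNA. Tumours 3, 4, 5-1, 5-2, 6-1 and 6-2 had signals of 457, 135, 224, 269, 251 and 209, and knockout livers 1 to 6 had 228, 203, 184, 239, 189 and 163. The controls were tight, at 112, 113 and 109. Tumour 3 was the highest of all samples and tumour 4 the lowest of the knockout samples, yet tumour 4 was still above the controls. The log2 change was 1.06 ± 0.25 (SE, adjusted p = 0.0168) in the tumours, a call that ended when any control was left out (adjusted p = 0.0676, 0.0715 and 0.0748 without controls 1, 2 and 3), in a fit of tumours and controls alone (adjusted p = 0.117) and with the actin ratio as a covariate (0.66 ± 0.42, adjusted p = 0.583). In the knockout livers it was 0.79 ± 0.25 (adjusted p = 0.123), which did not pass although no liver overlapped the controls.

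Tap2 encodes one chain of the transporter that carries peptides into the endoplasmic reticulum. Its signal was 71.3, 70.5, 65.1, 84.6, 78.7 and 119 in tumours 3, 4, 5-1, 5-2, 6-1 and 6-2 and 82.1, 62.7, 73.3, 73.9, 73.3 and 62.1 in knockout livers 1 to 6. The controls had 30.9, 17.5 and 48. Here tumour 4 stood with the other tumours, and no knockout sample reached down to the controls. The log2 change was 1.03 ± 0.23 (SE, adjusted p = 0.0306) in the livers and 1.18 ± 0.23 (SE, adjusted p = 0.00547) in the tumours. With the actin ratio as a covariate it was 0.84 ± 0.32 in the livers (adjusted p = 0.314) and 0.92 ± 0.39 in the tumours (adjusted p = 0.377), so that both calls were lost. A fit of tumours and controls alone also lost the call in the tumours (adjusted p = 0.0694). The call in the livers was also lost without control 1 (adjusted p = 0.121), without control 2 (0.194) and without liver 1, 2, 3 or 4. In limma it was lost as well with the larger constant (adjusted p = 0.0525) and with no filter on dim probe sets (0.0509).

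**Figure D2:**
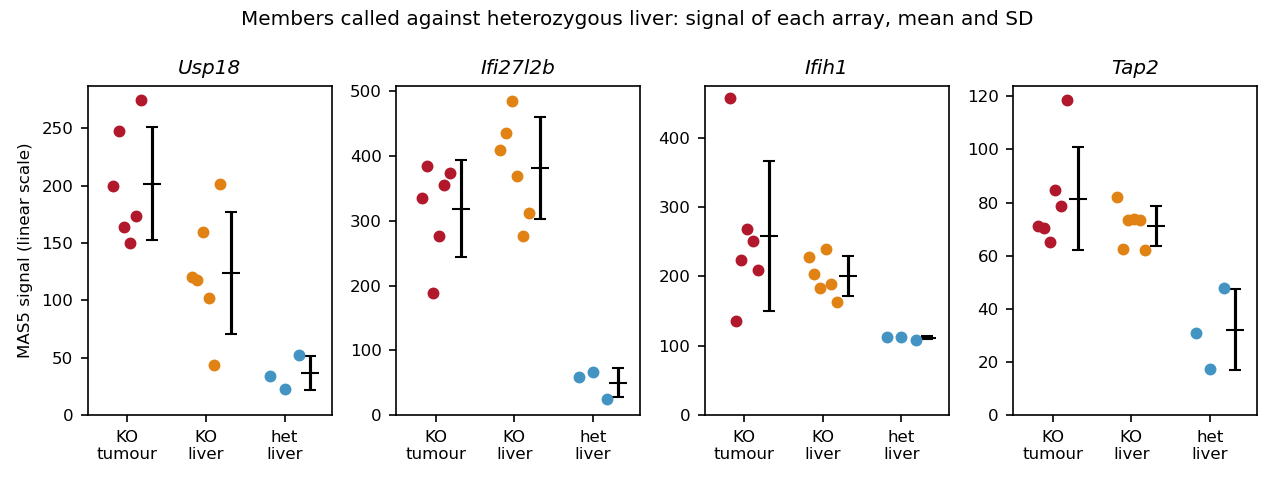
Signal of each array, on a linear scale, for the 4 genes called against heterozygous liver, with the mean and SD of each group beside its points. Tumours (n = 6) and knockout livers (n = 6) lay above the heterozygous livers (n = 3) for Ifi27l2b, Ifih1 and Tap2, and 1 knockout liver lay among them for Usp18.

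Beyond Usp18, Ifi27l2b and Ifih1, no gene of the type I response passed the threshold in the fit of all samples. In the knockout livers 16 of the 20 had a log2 change above 0, with a median of 0.47. Called higher were 2 (Usp18 and Ifi27l2b), against 1.36% of all genes. In the tumours against controls 18 of 20 were above 0, with a median of 0.48. Here 3 were called higher (Usp18, Ifi27l2b and Ifih1), against 3.94% of all genes. Tumours against knockout livers gave 12 above 0 and 8 below, with a median of 0.12. Leaving out tumour 4 moved the mean change of the class in that comparison to 0.31, against 0.15 with it.

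Among the antiviral effectors, Ifit2, which binds viral RNA through its tetratricopeptide repeats, had 45.4, 1.9, 222, 42.8, 37.3 and 55.6 in tumours 3, 4, 5-1, 5-2, 6-1 and 6-2. Knockout livers 1 to 6 had 30.5, 19.1, 52.8, 46.6, 1.4 and 25.7, and the controls 7.3, 2.4 and 5. The controls, tumour 4 and liver 5 lay close to background, so its log2 changes depend on the added constant. The log2 change was 1.93 ± 0.66 in tumours over controls (adjusted p = 0.0898) and 1.27 ± 0.66 in knockout livers over controls (adjusted p = 0.379). Its spread among tumours, an SD of 1.40 on the log2 scale, was the largest of the set.

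Ifit3, of the same family, had a signal of 139, 17.2, 124, 120.2, 108 and 115 in tumours 3, 4, 5-1, 5-2, 6-1 and 6-2. In the knockout livers it ran between 62.4 and 134 with a median of 90.5, and in the controls it was 59.9, 56.8 and 68.1. The other 5 tumours lay within a narrow band above all controls, and tumour 4 lay below every other sample of the study. The log2 change over controls was 0.50 ± 0.41 in the tumours (adjusted p = 0.515) and 0.49 ± 0.41 in the knockout livers (adjusted p = 0.605). Ifit1, also of this family, had a log2 change of -0.34 ± 0.35 in the knockout livers (adjusted p = 0.689), with 5 of 6 livers (30.6 to 48.4) below every control (55.9 to 70.8).

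Irf7, the transcription factor that amplifies the type I response, had 290.4, 43.3, 113, 138, 295 and 253 in tumours 3, 4, 5-1, 5-2, 6-1 and 6-2. Knockout livers had 151 to 254 (median 204), and the controls 146, 106 and 158. Tumours thus lay above, within and below the range of the controls, and the change over controls was 0.23 ± 0.41 (adjusted p = 0.795). Its partners of the signalling step, Irf9 and Stat2, had changes of 0.31 ± 0.33 (adjusted p = 0.644) and 0.04 ± 0.22 (adjusted p = 0.935) in the tumours over controls.

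Bst2, the tetherin that holds budding viruses at the cell surface, had 439, 967, 331, 511, 940.2 and 1422 in tumours 3, 4, 5-1, 5-2, 6-1 and 6-2. Its signal in knockout livers was 612 to 865 (median 762), against 269, 435 and 416 in the controls. All knockout livers were above all controls, and tumours spread over a wider range on both sides of the livers. The log2 change was 1.01 ± 0.34 in the livers (adjusted p = 0.145) and 0.88 ± 0.34 in the tumours (adjusted p = 0.133).

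Ifitm3, a membrane protein that blocks entry of viruses, had 1905, 1354, 1040.2, 1346, 3118 and 2768 in tumours 3, 4, 5-1, 5-2, 6-1 and 6-2. Knockout livers lay between 2524 and 3040.5 (median 2677), and the controls had 1818, 1744 and 1680. The livers formed a tight group above all controls, while only both tumours of mouse 6 were at the level of the livers or above. Tumours over knockout livers gave the lowest log2 change of the set, -0.60 ± 0.22 (unadjusted p = 0.0138 and adjusted p = 0.339 in limma, lower in 5 of 6 tumours than in the liver of the same mouse).

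Mx1, an interferon-induced GTPase of the dynamin family, had 33.9, 9.4, 30.5, 58.4, 29.8 and 11 in tumours 3, 4, 5-1, 5-2, 6-1 and 6-2. Knockout livers 1 to 6 had 8.9, 19, 4.4, 4.6, 2.3 and 0.9, against 31.5, 22.9 and 10 in the controls. It was above the 40th percentile of its array in 2 tumours (3 and 5-2), 0 livers and 1 control. As no liver was above it, the fitted changes, -0.98 ± 0.45 in livers over controls (adjusted p = 0.305) and 1.21 ± 0.37 in tumours over livers (adjusted p = 0.239), depend on the added constant.

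Among the remaining effectors, Rsad2 (viperin, which makes a chain-ending nucleotide) had a log2 change of 0.98 ± 0.42 in tumours over controls (adjusted p = 0.178), on the brightest of its 3 probe sets. The 2 dimmer ones gave differences of 0.18 and 0.08. The antiviral oligoadenylate synthetase family gave changes over controls in knockout livers of 0.20 for Oas1a, 0.74 for Oasl1 and 1.21 for Oasl2, with adjusted p of 0.845, 0.264 and 0.256. Oasl2 was close to background in all controls, and its values in knockout livers (30.1 to 52.4) all lay above those of the controls (3.7 to 15.1). Eif2ak2, the kinase that halts translation on viral RNA, had the lowest change of the class in tumours over controls (-0.11 ± 0.25, adjusted p = 0.839), with 32 to 69.1 in tumours and 31.4 to 60.2 in livers, against 33.9 to 63.9 in controls. Mx2, Ifi35 and the ubiquitin ligase Trim25 had changes of 0.45, 0.46 and -0.10 in tumours over controls, with adjusted p of 0.633, 0.170 and 0.785. Mx2 was above the 40th percentile of its array in 2 tumours, 1 liver and 0 controls, so its change depends on the added constant.

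None of the interferon-gamma GTPases passed the threshold. In limma 0 of the 7 were called in any comparison, with 0, 1 and 1 at an unadjusted p under 0.05 in livers over controls, tumours over controls and tumours over livers. Over all genes tested, 1.68%, 6.87% and 0.136% were called and 15.7%, 22.4% and 10.3% had such an unadjusted p. In the livers 2 of 7 changes were above 0, with a median of -0.06 and a mean of 0.01, which differ in sign, and no gene had groups that did not overlap. In tumours over livers all 7 were above 0, with a median of 0.31 and a range of 0.04 to 1.15. The difference between the classes was not tested.

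Gbp2, a guanylate-binding protein recruited to pathogen vacuoles, had 77, 28.4, 210.2, 77.5, 38.8 and 78.7 in tumours 3, 4, 5-1, 5-2, 6-1 and 6-2. Knockout livers had 34.7 to 76.2 (median 57.8), and the controls 31.3, 44.4 and 27.2. Tumour 5-1 stood well above all samples, and tumour 4 lay within the controls. The log2 change over controls was 0.59 ± 0.39 in the livers (adjusted p = 0.511) and 0.90 ± 0.39 in the tumours (adjusted p = 0.184).

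Gbp3, of the same family, had 78.7, 22.8, 160.5, 32.8, 53.3 and 37.7 in tumours 3, 4, 5-1, 5-2, 6-1 and 6-2. Knockout livers 1 to 6 had 17.4, 3.5, 38.7, 34.2, 7.6 and 34.4, and the controls 8.6, 38.6 and 25.4. Livers and controls covered the same range close to background, and 3 tumours lay above all of them. The change in tumours over livers was 1.15 ± 0.42 (unadjusted p = 0.0145, adjusted p = 0.339 in limma), higher in 5 of 6 tumours than in the liver of the same mouse.

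Of the immunity-related GTPases, Iigp1 had 5036, 4605, 2442, 2595, 2753 and 1363 in tumours 3, 4, 5-1, 5-2, 6-1 and 6-2, with 1773 to 2432 (median 2003) in knockout livers and 1726, 2156 and 2404 in controls. Tumours 3 and 4 had about the same high level, and tumour 6-2 was below all livers and controls. The change in tumours over livers was 0.50 ± 0.24 (adjusted p = 0.501). Igtp, Irgm1 and Ifi47 had smaller changes in that comparison, of 0.27, 0.08 and 0.35, with adjusted p of 0.716, 0.916 and 0.580. Irf1, the transcription factor that drives these genes, had 202 to 418 (median 262) in tumours and 209 to 318 (median 286) in livers, against 278, 300.5 and 367 in controls. It had the lowest change of the class in each comparison, -0.20 ± 0.21 in livers over controls, -0.17 ± 0.21 in tumours over controls and 0.04 ± 0.18 in tumours over livers, with adjusted p of 0.693, 0.703 and 0.962.

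Of the genes of peptide processing and loading, Tap2 rose in both tissues and the other 5 did not pass. In livers over controls 1 of 6 was called higher, against 1.36% of all genes. The median was 0.30, with 5 of 6 changes above 0. In tumours over controls 1 of 6 was called higher, against 3.94% of all genes. The median was 0.47, with 5 of 6 changes above 0. Psmb9, a catalytic subunit of the immunoproteasome, had 223, 139.6, 224, 198, 215 and 308 in tumours 3, 4, 5-1, 5-2, 6-1 and 6-2, with 155 to 227 (median 171) in knockout livers and 140.5, 137 and 146 in controls. All samples of both groups but tumour 4 lay above the controls. Its change over controls was 0.56 ± 0.20 in tumours (adjusted p = 0.0961) and 0.32 ± 0.20 in livers (adjusted p = 0.470).

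Psmb8, another catalytic subunit, Psme1, a proteasome activator subunit, and Tapbp, the tapasin that bridges transporter and class I molecule, had changes of 0.61, 0.38 and 0.31 in tumours over controls, with adjusted p of 0.116, 0.239 and 0.507. Tap1, which pairs with Tap2 in the transporter, had 42.9 to 96.3 (median 75.5) in tumours and 53.9 to 81.1 (median 73.3) in livers, against 64.6, 106 and 68.4 in controls. The groups overlapped for Tap1, and its changes were -0.18 ± 0.23 in tumours over controls and -0.13 ± 0.23 in livers over controls (adjusted p = 0.694 and 0.831), so that Tap2 was called and Tap1 was not. The difference between Tap1 and Tap2 was not tested.

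No chain of the class I molecule passed the threshold in the fit of all samples as deposited. In limma 0 of the 3 were called in any comparison, with 1, 1 and 0 at an unadjusted p under 0.05. Over all genes tested, 1.68%, 6.87% and 0.136% were called in livers over controls, tumours over controls and tumours over livers. Such an unadjusted p was reached by 15.7%, 22.4% and 10.3% of all genes, in the same order. H2-K1, a heavy chain, had 8225, 5023, 5502, 7157, 5798 and 5844 in tumours 3, 4, 5-1, 5-2, 6-1 and 6-2. Knockout livers had 5767 to 7328 (median 6515) and the controls 4898, 5095 and 4768, so that all livers lay above all controls. The change was 0.41 ± 0.16 in livers over controls (adjusted p = 0.218) on its brightest probe set, and the other 3 sets gave differences of 0.08, 0.00 and 0.36. H2-K1 was called in a fit of livers and controls alone (adjusted p = 0.0223).

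H2-D1, the other heavy chain, had 7785, 5566, 4990, 5835, 5459.5 and 4967 in tumours 3, 4, 5-1, 5-2, 6-1 and 6-2, with 4304 to 5623 (median 5062) in livers and 4118, 4359 and 4339.8 in controls. Tumour 3 stood apart on the high side and all tumours were above all controls (change 0.42 ± 0.16, adjusted p = 0.129). With quantile normalization H2-D1 was called (0.54 ± 0.15, adjusted p = 0.0367), and its other probe sets that passed the filter gave differences between -0.41 and 0.69. B2m, the light chain, had 6348 to 8931 (median 7723) in tumours and 5628 to 9007 (median 7429.9) in livers, against 7359, 7401 and 8619.9 in controls. The groups overlapped fully, with a change of -0.03 ± 0.17 in tumours over controls (adjusted p = 0.945). Class I heavy chains are near-identical copies of each other, so probe sets of H2-K1 and H2-D1 can share signal with other class I genes.

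**Figure D3:**
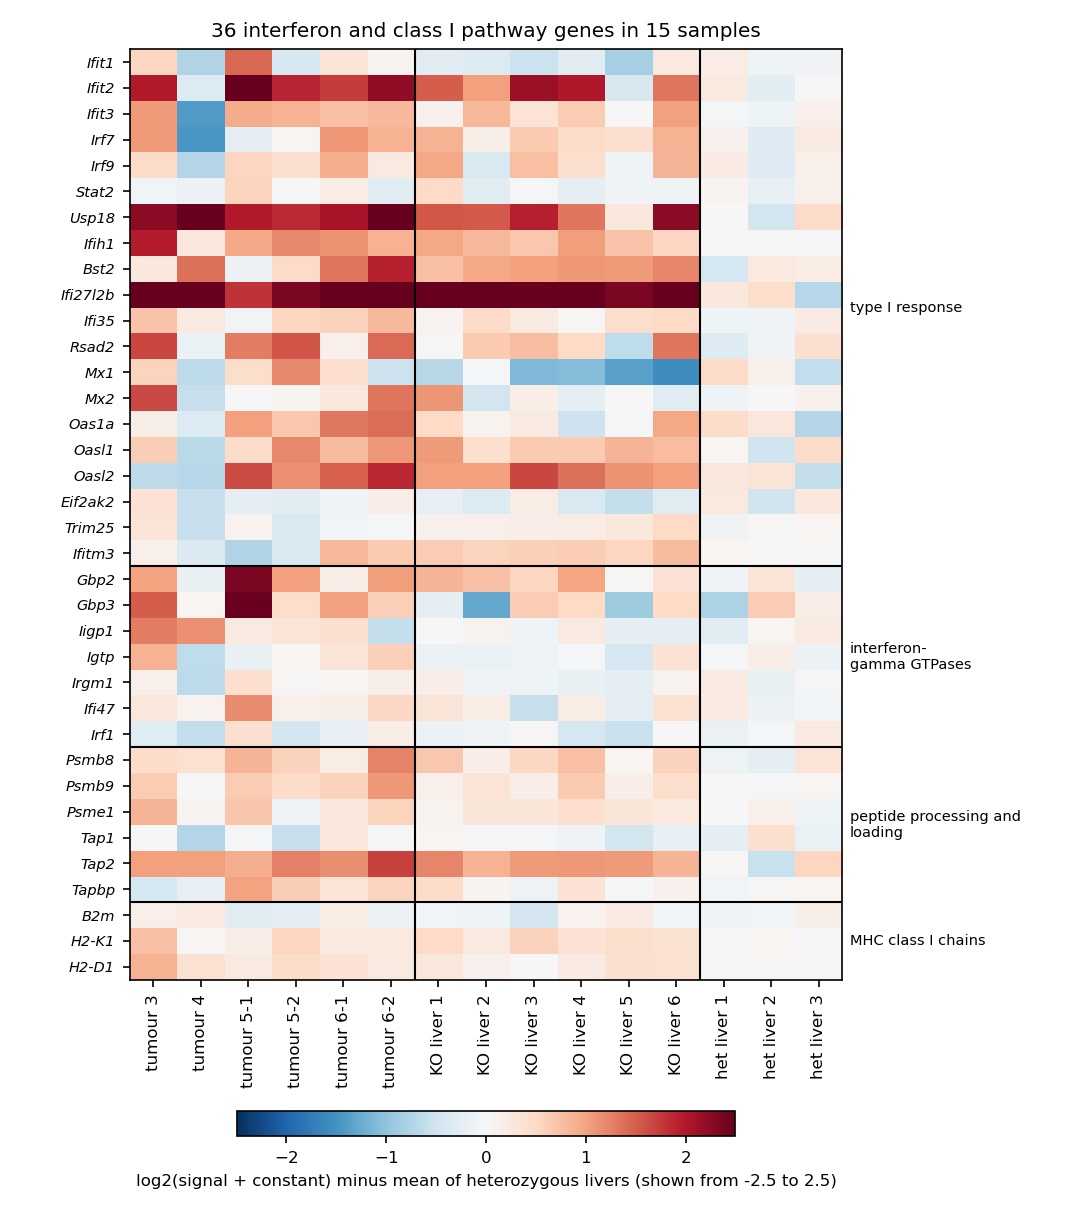
Each cell is the log2(signal + constant) of 1 of the 36 genes in 1 of the 15 samples minus the mean of the heterozygous livers, with red for higher and blue for lower. Ifi27l2b and Usp18 were high in tumours and knockout livers, and the column of tumour 4 was blue for most of the type I genes.

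Taken per sample, the level of a class was the mean over its genes of the log2 difference from the controls. The type I response stood at 0.88, -0.11, 0.79, 0.70, 0.89 and 1.02 in tumours 3, 4, 5-1, 5-2, 6-1 and 6-2 and at 0.20 to 0.72 in the knockout livers (median 0.60), against -0.07 to 0.08 in the controls. Every knockout liver and 5 of 6 tumours lay above the controls, and tumour 4 lay below them. The GTPases stood at 0.68, -0.12, 0.98, 0.22, 0.27 and 0.35 in the same tumours and at -0.37 to 0.21 in the livers (median 0.08), against -0.13 to 0.11 in the controls. Livers and controls overlapped for the GTPases and not for the type I genes, and this difference between classes was not tested. Peptide processing and loading stood at 0.42, 0.08, 0.68, 0.37, 0.46 and 0.85 in the tumours and at 0.18 to 0.53 in the livers (median 0.32), against -0.07 to 0.12 in the controls. The class I chains ran from 0.03 to 0.58 in tumours and from 0.04 to 0.35 in livers, against -0.05 to 0.04 in controls. Liver 5 had the lowest level of type I, GTPase and peptide genes among the livers and the lowest summed macrophage markers (3893), whose part in this was not tested.

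**Figure D4:**
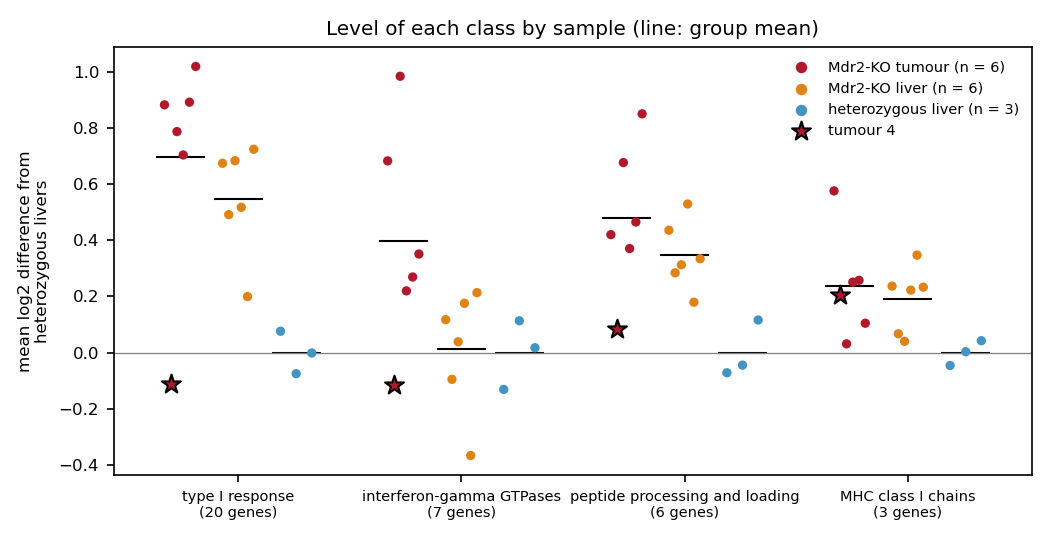
Level of each class in each sample, as the mean log2 difference from the heterozygous livers over the genes of the class, with a line at each group mean and a star for tumour 4. Tumour 4 lay at -0.11 for the type I genes and -0.12 for the GTPases, below the other 5 tumours in both, and at 0.20 for the class I chains, between them.

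The tumours varied more among themselves than the livers did. The median SD of the type I genes on the log2 scale was 0.68 in tumours and 0.29 in knockout livers, against 0.28 in controls, and over all genes tested it was 0.43 in tumours and 0.29 in knockout livers, against 0.25 in controls. Without tumour 4, an alternative added after its values were seen, the type I genes had a median SD of 0.47 in tumours and all genes 0.41. The GTPases had 0.54 in tumours and 0.26 in livers, and the peptide genes 0.38 in tumours and 0.19 in livers. The class I chains had the smallest, 0.24 in tumours and 0.15 in livers.

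Tumour 4 was the lowest of the 6 tumours for 23 of the 36 genes (all genes tested, 26.1%) and the highest for 2, Ifi27l2b and B2m (all genes, 10.9%). It was lowest for 14 of 20 type I genes, 6 of 7 GTPases, 2 of 6 peptide genes and 1 of 3 class I chains. It lay over 2-fold below the median of the other 5 tumours for 10 of the 20 type I genes, against 9.15% of all genes. The farthest below were Irf7 (log2 difference -2.32), Ifit2 (-2.31) and Ifit3 (-2.30), followed by Oasl2 (-2.21). The farthest above were Bst2 (0.91), Iigp1 (0.83) and Usp18 (0.49), so not all interferon-induced genes were low. In tumour 4 the signals of Ifit2 (1.9), Ifit3 (17.2) and Oasl2 (2.7) lay below the 40th percentile of its array (22.6), so the sizes and the order of these differences depend on the added constant. These counts rest on 1 array, with no replicate check, and no p was computed for them.

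The same counts in the other tumours were smaller on the low side. Of the 36 genes, 2 lay over 2-fold below the median of the others in tumour 3 (8.01% of all genes), 11 in tumour 4, 2 in tumour 5-1 (6.57%), 0 in tumour 5-2 (3.39%), 1 in tumour 6-1 (3.22%) and 1 in tumour 6-2 (3.88%). Over 2-fold above lay 3 in tumour 3 (4.71%), 0 in tumour 4 (3.76%), 5 in tumour 5-1 (8.56%), 0 in tumour 5-2 (4.69%), 2 in tumour 6-1 (2.95%) and 3 in tumour 6-2 (3.59%). Tumour 3 was the highest tumour for 11 genes (19.2%) and the lowest for 1 (18.9%), and tumour 6-2 was the highest for 8 (15%) and the lowest for 3 (15.9%). Tumour 5-2 was highest for 2 and lowest for 2 (14% and 12.2% of all genes), tumour 5-1 was highest for 9 and lowest for 6 (28.5% and 16.5%), and tumour 6-1 highest for 4 and lowest for 1 (12.5% and 10.5%).

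The counts for tumour 4, whose array had the lowest median signal, were smaller under other scalings. With quantile normalization tumour 4 was lowest for 18 of the 36 genes (all genes, 18.5%) and over 2-fold below for 7 type I genes (6.13%). With arrays centred on their medians it was lowest for 15 of the 36 (12.9%) and over 2-fold below for 6 type I genes (5.23%). The median difference of the 20 type I genes from the other tumours was -0.97 as deposited, -0.80 with quantile normalization and -0.71 with median centring, while that of all genes was -0.14, -0.03 and 0.14. Tumour 4 also had the lowest summed macrophage markers of all samples (1580), the lowest endothelial markers (399.1, against 586 to 1188 in the other tumours) and the highest hepatocyte markers of the tumours (102026). It was the lowest of all samples for B and plasma cell (104.4) and neutrophil markers (97.1). For T and NK cell markers it was the lowest by little (60.3, against 60.8 in knockout liver 2). These sums are of signals as deposited. For dendritic cell markers it was the lowest tumour (76.5), but for bile duct markers (74.5) tumour 3 was lower (44.5). The part of these in its interferon genes was not tested.

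**Figure D5:**
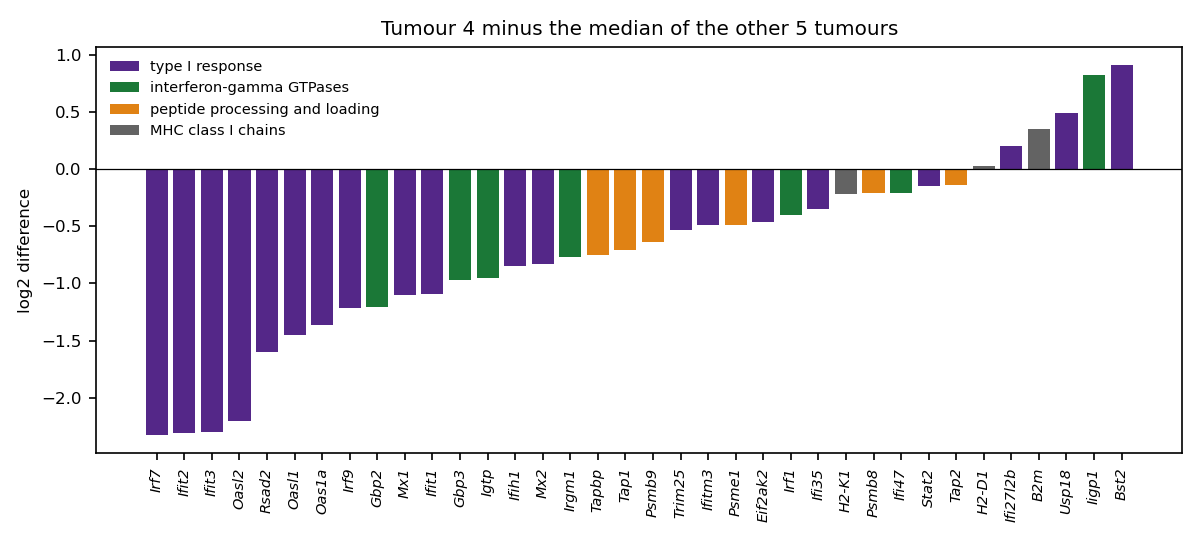
log2 difference between tumour 4 and the median of the other 5 tumours for each of the 36 genes, ordered by size and coloured by class. Of the 36 bars 30 lie below 0, the lowest at -2.32 (Irf7), and 6 above, the highest at 0.91 (Bst2).

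Against the liver of its own mouse, tumour 4 was higher for 10 of the 36 genes and lower for 26. Of all 9528 genes tested, 4053 were higher in tumour 4. Its median log2 difference was -0.57 for the type I genes and -0.10 for all genes. The other 5 tumours were higher than their own liver for 23 to 29 of the 36 genes, and for 4423 to 5332 of all genes. Median differences of the type I genes in them were 0.17 for tumour 3, 0.42 and 0.34 for tumours 5-1 and 5-2, and 0.15 and 0.31 for tumours 6-1 and 6-2. The GTPases gave 0.87 for tumour 3, -0.44 for tumour 4, 0.97 and 0.50 for tumours 5-1 and 5-2, and -0.06 and 0.14 for tumours 6-1 and 6-2. Within 1 mouse, both tumours thus lay on the same side of the liver for the type I genes. In mouse 6 they lay on different sides for the GTPases. Both tumours of a mouse were set against the same single liver array, so their sides are not separate observations. Liver 5 had the lowest type I and GTPase levels of the livers (0.20 and -0.37).

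Tumour 5-1 was high for the GTPases. It was the highest tumour for 5 of the 7 (Gbp2, Gbp3, Irgm1, Ifi47 and Irf1) and the lowest for 0, against 28.5% and 16.5% of all genes tested, and also the highest for Ifit1, Ifit2, Stat2 and Tapbp, at 179.7, 222, 93.5 and 840.4. It was the lowest tumour for Bst2, Ifi27l2b, Ifitm3, Ifi35, B2m and Tap2. Tumour 5-2 of the same mouse was the highest for none of the GTPases and had 77.5 for Gbp2 and 32.8 for Gbp3, against 210.2 and 160.5 in tumour 5-1. Tumour 5-1 had the highest summed macrophage markers (9286), the highest dendritic cell markers (435.5, against 76.5 to 160.5 in the other tumours) and the highest median array signal. Their part in its values was not tested.

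The promoters of the genes were searched for the sequences through which interferons act. In windows of 250 bases before to 50 after the start of the gene, taken from RefSeq on build GRCm38.p6, 2 motifs were looked for on both strands: GAAANNGAAA, the core of the interferon-stimulated response element, and TTCNNNGAA, the gamma-activated site, which reads the same on both strands. A window was at hand for 30 of the 36 genes, and Ifi27l2b, Iigp1, Mx1, Mx2, Tap2 and Usp18 were the others. The first motif was found in 15 of the 30 (50%), against 3.85% of the 7707 genes tested with a window, and the second in 9 (30%), against 8.29%. By class, the first motif was in 9 of 16 type I genes, 4 of 6 GTPases, 1 of 5 peptide genes (Psme1) and 1 of 3 class I chains (B2m). Matches of both motifs overlap in Bst2 and Ifitm3. Tumour 4 was the lowest tumour for 10 of the 15 genes with the first motif and 11 of the 15 without it. The windows of Tap1 and Psmb9, which lie on opposite strands of chromosome 17 with starts 226 bases apart, overlap by 275 bases. Neither motif was found in them by this search for exact letters.

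Promoters are shown for Ifih1, a called gene, for the GTPase and the class I chain with the largest log2 change in knockout livers over controls (Gbp2 and H2-K1), and for Ifit3, which was added after its low value in tumour 4 was seen. Both strands were searched, and only matches to GAAANNGAAA or its reverse TTTCNNTTTC are capitals. Each window is 300 bases long, written 5' to 3' on the strand of the gene. None of the 4 holds the second motif, and H2-K1 holds neither.
Ifih1 (chr2:62646206-62646505, minus strand): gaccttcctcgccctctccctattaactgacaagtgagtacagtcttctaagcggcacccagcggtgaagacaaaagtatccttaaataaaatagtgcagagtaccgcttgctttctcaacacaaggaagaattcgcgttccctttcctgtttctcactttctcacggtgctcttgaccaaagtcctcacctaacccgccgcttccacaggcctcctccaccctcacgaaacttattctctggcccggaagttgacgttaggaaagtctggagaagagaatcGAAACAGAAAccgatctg
Gbp2 (chr3:142620413-142620712, plus strand): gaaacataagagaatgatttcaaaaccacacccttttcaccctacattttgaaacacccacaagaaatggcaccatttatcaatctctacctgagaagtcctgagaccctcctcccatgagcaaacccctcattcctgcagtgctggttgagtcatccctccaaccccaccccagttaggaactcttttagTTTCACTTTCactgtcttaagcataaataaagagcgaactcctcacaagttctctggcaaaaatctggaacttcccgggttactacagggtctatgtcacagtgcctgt
Ifit3 (chr19:34583279-34583578, plus strand): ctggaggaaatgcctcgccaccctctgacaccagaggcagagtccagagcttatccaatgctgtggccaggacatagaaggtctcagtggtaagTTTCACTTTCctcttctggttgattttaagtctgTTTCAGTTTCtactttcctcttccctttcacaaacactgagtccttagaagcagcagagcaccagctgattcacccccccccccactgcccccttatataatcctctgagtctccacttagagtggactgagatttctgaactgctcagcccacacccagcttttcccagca
H2-K1 (chr17:34000298-34000597, minus strand): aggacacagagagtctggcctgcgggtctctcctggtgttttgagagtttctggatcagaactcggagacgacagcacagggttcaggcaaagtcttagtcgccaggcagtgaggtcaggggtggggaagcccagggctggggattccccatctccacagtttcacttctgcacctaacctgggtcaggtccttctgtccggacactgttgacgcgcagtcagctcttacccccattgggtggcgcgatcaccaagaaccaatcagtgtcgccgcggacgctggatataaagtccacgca
The match in Ifih1 begins at base 33 of the transcript, that of Gbp2 59 bases before the start, and those of Ifit3 156 and 122 bases before it. Each is a match of letters and not a measured site. Only exact letters were counted, so a window without a match can still hold a site of a differing sequence.

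The wider pathway was followed with lists of 100 further genes, 61 of which were tested. In knockout livers over controls 1 of 61 was called higher, Parp12, an interferon-induced ADP-ribosyltransferase (log2 change 1.22 ± 0.29, adjusted p = 0.0403), against 1.36% of all genes. In tumours over controls 5 of 61 were called, all higher, against 3.94% of all genes called higher: Parp12 (1.32 ± 0.29, adjusted p = 0.0107), Lgals3bp (1.16 ± 0.26, adjusted p = 0.0119), which encodes a secreted galectin-binding glycoprotein, the kinase gene Ikbke, which acts in interferon induction (1.02 ± 0.28, adjusted p = 0.0368), the class Ib gene H2-M3 (1.00 ± 0.28, adjusted p = 0.0413) and Ifi27l2a (2.00 ± 0.57, adjusted p = 0.0423). In tumours over livers 0 of 61 were called in limma, against 0.136% of all genes. In that fit 8 had an unadjusted p under 0.05, against 10.3% of all genes.

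Upstream of the response, 0 of 7 genes of interferon receptors and their kinases were called in any comparison in limma. Of 7 transcription factors and inhibitors, 0 were called as well. Over all genes, 1.68%, 6.87% and 0.136% were called in livers over controls, tumours over controls and tumours over livers. In livers over controls 0 and 1 of the 2 lists had an unadjusted p under 0.05, against 15.7% of all genes. The ligand genes Ifnb1 and Ifng, also listed, were not tested. The largest changes in livers over controls were 0.38 ± 0.30 for Ifngr1, a chain of the interferon-gamma receptor (adjusted p = 0.582), and 0.54 ± 0.64 for Socs3, an inhibitor of STAT signalling (adjusted p = 0.732). In tumours over controls they were 0.62 ± 0.23 for Ifnar2, a chain of the type I receptor (adjusted p = 0.120), 0.46 ± 0.23 for the receptor kinase gene Tyk2 (adjusted p = 0.246), 0.77 ± 0.39 for the phosphatase gene Ptpn2 (adjusted p = 0.250) and -0.66 ± 0.29 for the transcription factor gene Irf2 (adjusted p = 0.190). Of the 9 nucleic acid sensing genes 0 were called in livers over controls, where the median was 0.73 and 4 had an unadjusted p under 0.05 (15.7% of all genes), and Zbp1, a sensor of unusual nucleic acid forms, came closest (1.63 ± 0.41, adjusted p = 0.0517), followed by Ikbke (1.07 ± 0.28, adjusted p = 0.0613). Among the 8 other class I presentation genes the largest changes in livers over controls were 0.95 ± 0.28 for H2-M3 (adjusted p = 0.100) and 0.74 ± 0.28 for Pdia3, a chaperone of the loading complex (adjusted p = 0.209).

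Of 12 macrophage markers that passed the filter, 2 (Cd68 and Lyz2) were called higher in livers over controls, against 1.36% of all genes. In tumours over controls 6 (Cd68, Lyz2, Cd14, C1qa, C1qb and Mpeg1) were called higher, against 3.94%. Median log2 changes were 1.02 and 1.11. Changes below 0 were found for 1 marker in livers over controls (-0.64) and for 3 in tumours over controls (lowest -0.82), with 0 called lower. The summed signal of the 12 in tumour 4 (1580) was below that of every control. Of 4 T and NK cell markers 0 were called in any comparison in limma, also at an unadjusted p under 0.05, and their summed signal was 60.3 to 129 in tumours and 60.8 to 108 in livers, against 81.8 to 125.5 in controls. Of 4 plasmacytoid and dendritic cell markers 0 were called in any comparison in limma, also at an unadjusted p under 0.05. Over all genes tested, 1.68%, 6.87% and 0.136% were called in livers over controls, tumours over controls and tumours over livers. The shares at such an unadjusted p were 15.7%, 22.4% and 10.3%. The part of macrophages in the interferon genes was not tested.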

How the data were processed

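Liver and tumour RNA was measured on 1 Affymetrix array per sample. The deposited values are MAS5 signals, an intensity per probe set on a linear scale, per the submitters' processing notes; MAS5 version, settings and detection calls are not given in the sources used here. Every array had about the same trimmed mean. Of 22690 probe sets, 64 controls were left out and 20380 had 1 gene in the platform annotation (691 had several and 1555 were not listed). Probe sets had to exceed the 40th percentile of their array in 3 arrays or more, and the brightest of these stood for its gene, which left 9528 genes.

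Values were log2(signal + 9.1), the constant being the 20th percentile of all signals, so fold changes of dim genes are understated. All 15 arrays were fitted with limma 3.58.1 (R 4.3.3, statmod 1.5.0), with a mean-dependent prior spread and the animal as a random block, and p-values were Benjamini-Hochberg adjusted over all genes and called under 0.05. The labels tie tumours to the livers of 4 mice. Deviations of livers and tumours from their group means correlated at -0.158 to 0.0852 within a mouse (6 pairs) and at -0.101 to 0.171 between mice (30 pairs). The 2 tumours of 1 mouse were not set against each other in this check. The correlation within an animal that the fit used was -0.0175, so samples of 1 mouse counted almost as independent. Genes with full values were those called, those with the highest or lowest change per class and comparison, and the 3 farthest above and below in tumour 4. The genes and lists were chosen with earlier results of these data known. Class levels, marker sums, counts for single tumours and promoter motifs are descriptions with no p-value, apart from a screen for single samples that stand apart by Dixon's criterion. Alternatives changed the constant, filter, scaling, probe set rule, block, samples fitted, prior, actin covariate and left-out array. The fit was tested on simulated data.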

Additional observations from a re-analysis of the deposited data

Results flagged for a closer look

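Of 82 checks of a single sample against the rest of its group, 6 found a sample apart by Dixon's criterion for 6 samples (a gap to the nearest other sample above 0.625 of the group's range). Chance gives about 1 in 20. Of the 6, 4 concerned tumour 4. Ifit3 was lowest there, at a signal of 17.2, with a gap of 0.868 of the range. Irgm1 was lowest there too, at 75.3 (0.647). The mean level of all 36 genes in tumour 4 was -0.054 on the log2 scale relative to controls (0.680). That of the 20 type I genes was -0.11 (0.722), and each was the lowest of the tumours. Both levels include Ifit3, and that of the 36 genes also includes Irgm1 and the type I genes, so these 4 are not separate. H2-D1 was highest in tumour 3, at 7785 (0.642). Stat2 was highest in knockout liver 1, at 89.4 (0.708).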

How the results depend on the processing

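Ifi27l2b in both comparisons with controls, and Usp18 in tumours over controls, kept their call in all 11 alternatives and 15 fits with 1 array left out. Knockout livers over controls gave 160 genes, and 102 with a larger constant, 994 from the groups compared alone, 94 without trend and with a robust prior, and 21 with the actin ratio as a covariate. Genes of the set numbered 3, and 1 with the larger constant and 9 from the groups compared alone. Tumours over controls gave 655 genes, and 117 from the groups compared alone and 21 with the actin covariate, with 4 genes of the set and 2 in each of these. Tumours over knockout livers gave 13 genes, and 4 without a constant, 2 without trend and with a robust prior, and 0 in limma with a fixed replicate block in the matched animals (731 at an unadjusted p under 0.05), from the groups compared alone (879) and with the actin covariate (743). Without any replicate block the counts were 160, 646 and 13, and 3, 4 and 0 for the set.

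With 1 array left out, counts ran from 34 to 298 genes and 1 to 4 of the set in livers over controls, from 216 to 782 and 3 to 8 in tumours over controls, and from 0 to 62 and 0 to 0 in tumours over livers. The mean change of the class I chains in livers over controls was 0.19, and 0.32 with quantile normalization and 0.064 with the mean of probe sets. The mean change of the GTPases there (0.01) was below 0 under 6 settings, down to -0.07 with the actin covariate. That of the class I chains in tumours over livers (0.05) was -0.02 without tumour 3. Tumour 4 was over 2-fold below for 10 type I genes, and for 3 with the larger constant and 6 with median centring, and lowest for 23 of the 36 genes, and 15 with median centring. The cause of these changes was not tested. Counted once per gene, comparison and alternative or left-out array, 26 calls were lost and 13 gained, and 0 changed sign past the threshold. The losses were all of Usp18, Tap2 and Ifih1. Signal close to background limited Mx1 and Mx2 in all 3 groups, each above the 40th percentile of its array in 2 of 6 tumours. It also limited Gbp3 in livers and controls, Ifit2 in controls and some knockout samples, and Oasl2 in controls and tumours 3 and 4.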
